A study of Bos taurus with 24 samples.

Results

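The response of Holstein dermal fibroblasts (DF) to 8 h of lipopolysaccharide (LPS) was examined by RNA-Seq. DF are the connective tissue cells of the skin, and LPS is the outer membrane glycolipid of Gram-negative bacteria. Cultures of 4 Holstein heifers sampled 8 h after 100 ng/ml of LPS were compared with cultures of the same 4 animals at hour 0, before LPS. These 8 samples were taken from a series of 24, in which 4 Holstein and 4 Angus cultures were each sampled at 0, 2 and 8 h. Every culture came from 1 heifer in the second year of life, and the number in the sample label paired hour 8 with hour 0 of the same animal. The cells had been grown from shoulder skin, frozen at an early passage, revived and replated, and the lysates from a pair of wells were combined for each RNA sample. Each sample thus stands for 1 animal at 1 hour, and the animals are the replicates. No culture was kept for 8 h without LPS, so the effects of LPS and of time in culture cannot be told apart. All 59846 rows of the deposited count tables entered the fit, and the 27550 rows with a gene symbol, here called gene rows, are described.

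LPS is handed by CD14 to a receptor made of TLR4 and LY96 (MD-2). One arm of the signal runs through MYD88 to NF-kB and drives inflammatory cytokines and chemokines. The other runs through TICAM1 to the interferon regulatory factors, and type I interferon then induces a wide set of antiviral genes through its receptor. Fibroblasts are sentinel cells of the skin and the udder, and they are known for strong release of IL8 and IL6 when they meet bacterial products.

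Summed counts ranged from 51014538 to 99083582 per sample, and 94.1% to 96.4% of the reads matched the genome. Levels are given as CPM, the counts per 1e6 after scaling with edgeR's TMM factors, and before that scaling a level of 3 counts corresponded to 0.0303 to 0.0588 CPM. The 10 fibroblast marker rows summed to 61320 to 124600 CPM. The 7 keratinocyte marker rows summed to 0.793 to 14.5 CPM, and 0 of them could be tested. Endothelial, leukocyte and melanocyte marker rows each summed to 5.23 CPM or less, and the 4 mural cell marker rows to 140 to 293 CPM. The first principal component held 45.4% of the variance and separated hour 8 from hour 0. The second, with 16.3%, placed animal 2 and animal 4 at opposite ends at both hours, with animals 1 and 3 between them. In the hour 0 tables of animals 2 and 4, COL1A1 had 66.6 and 66.2 covered bases for each count, while the remaining 6 samples had 112 to 118. Why these samples differed was not tested.

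With a limit of 2-fold, more genes were higher than lower after 8 h of LPS, while without that limit the balance was the other way. The threshold, taken from the study, was a false discovery rate (FDR) under 0.05 in the edgeR likelihood-ratio test, a change of at least 2-fold and an average CPM above 1. Of the 13106 gene rows that could be tested, 384 (2.93%) passed, with 282 higher (2.15%) and 102 lower (0.778%) at hour 8. The counts given below for each gene list are to be read against these shares. With an FDR under 0.05 as the sole limit, 2395 gene rows were higher and 2676 lower. That balance was counted under TMM scaling alone, and scaling by library totals moved the median log2 fold change from -0.015 to 0.062. The rises were larger than the falls, with a median fold of 2.86 against 2.29. A rise of 4-fold or more was found for 85 gene rows and a fall of that size for 3. The change had the same sign in all 4 animals for 276 of the 282 rises and 98 of the 102 falls, where 26.9% of all gene rows tested were higher and 30.7% lower in all 4 animals. All 4 samples of one hour lay beyond all 4 of the other for 246 rises and 73 falls. Among all gene rows tested, such separation was seen upward in 11.0% and downward in 10.4%. The median log2 fold change of all gene rows tested was -0.015. For 41 of the 282 rises no sample reached 1 CPM at hour 0, so these passed the filter only through hour 8 and had to differ.

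**Figure D1:**
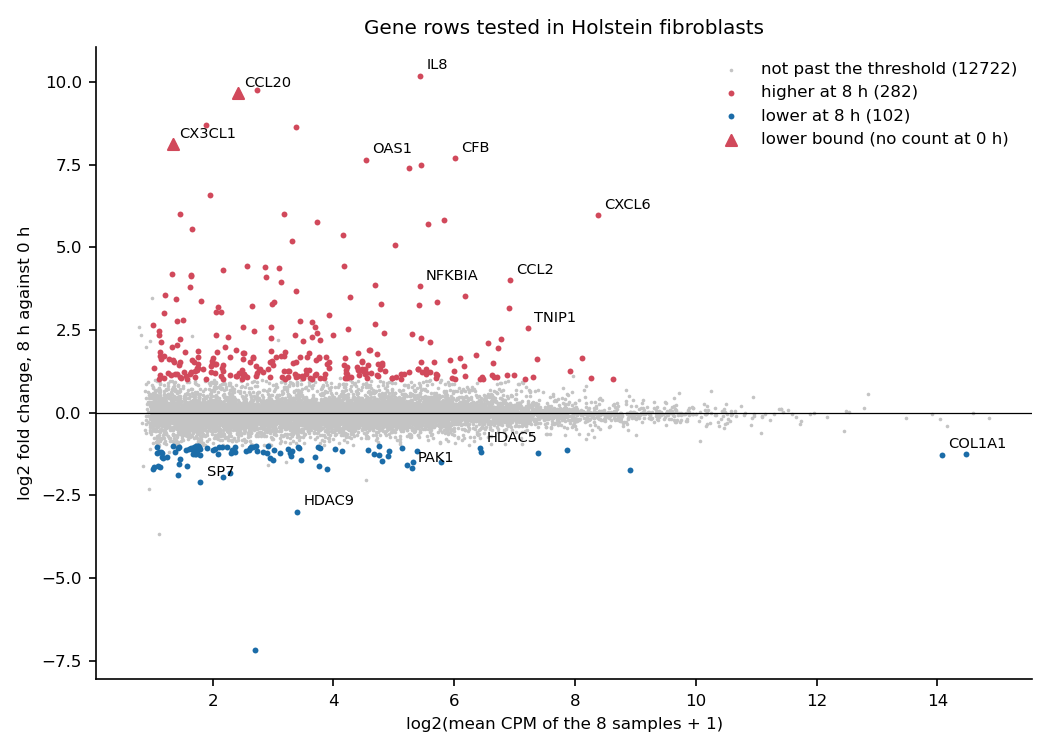
Log2 fold change at hour 8 against hour 0 (vertical axis) plotted against the log2 of the mean CPM of the 8 samples plus 1 (horizontal axis) for the 13106 gene rows tested in Holstein DF. The 282 rises (red) reach much further from 0 than the 102 falls (blue), and triangles are lower bounds for CCL20 and CX3CL1, which had no count at hour 0.

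The 3 chemokines for neutrophils that could be tested all rose, and 1 of them, IL8, passed the filter only through hour 8. IL8 (CXCL8, chromosome 6, 90559882 to 90563647 on build UMD v3.1), the main neutrophil attractant of cattle, stood at 0.0887, 0.0726, 0.0541 and 0.0660 CPM in animals 1 to 4 at hour 0. At hour 8 the same cultures held 48.9, 124, 73.3 and 91.9 CPM. The groups were far apart, and the log2 fold change was 10.19 (SE 0.34). CXCL6, a neutrophil attractant that lies close to IL8 on chromosome 6 (90645964 to 90648082), went from 11.7, 24.6, 4.34 and 5.08 CPM to 656, 1173, 249.7 and 531 CPM. Animal 2 was the highest at both hours, and the rise was 5.97 (SE 0.17, FDR = 1.1e-172) on the log2 scale. CXCL2, another ligand of the same receptor family, rose from 1.72 ± 0.248 to 91.5 ± 17.5 CPM (SD, n = 4), a log2 fold change of 5.72 (SE 0.09). Its row overlaps LOC100847175, and its covered bases per count at hour 8 were 0.542 times those at hour 0, so its size is less certain than that of IL8. PPBP, the remaining member of the list with a row, was under the filter.

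Among chemokines for monocytes and lymphocytes, 4 rose. CCL20, which attracts dendritic cells and T helper cells, had 0 counts in all 4 cultures at hour 0 and 3062 counts in all at hour 8. With a floor of 3 counts over the group, it was at least 814-fold higher. CX3CL1 (fractalkine), a membrane-bound chemokine, likewise went from 0 to 1048 counts and was at least 279-fold higher. CCL5 (RANTES) stood at 0.340, 0.276, 0.487 and 0.727 CPM in animals 1 to 4 before LPS and at 70.4, 96.1, 46.8 and 126.7 CPM after it. These groups did not overlap, and the log2 fold change was 7.49 (SE 0.24, FDR = 1.5e-150). CCL2 (MCP-1), the monocyte attractant, rose from 15.02 ± 7.78 to 226 ± 86.1 CPM, by 4.00 on the log2 scale (SE 0.19, FDR = 4.8e-74). Of the 7 members of this list that were tested, 4 rose and 0 fell, with a median log2 fold change of 4.00, which is the value of CCL2. CCL20, CX3CL1 and CCL5 passed the filter only through hour 8 and so had to differ. CX3CL1 fell under the CPM limit without animal 2. CXCL16, CXCL12 and CCL26 did not pass, at 0.98, 0.33 and -0.42. The interferon-inducible CXCL10 stayed under the filter, at 0.0137 ± 0.0120 and 0.262 ± 0.216 CPM.

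**Figure D2:**
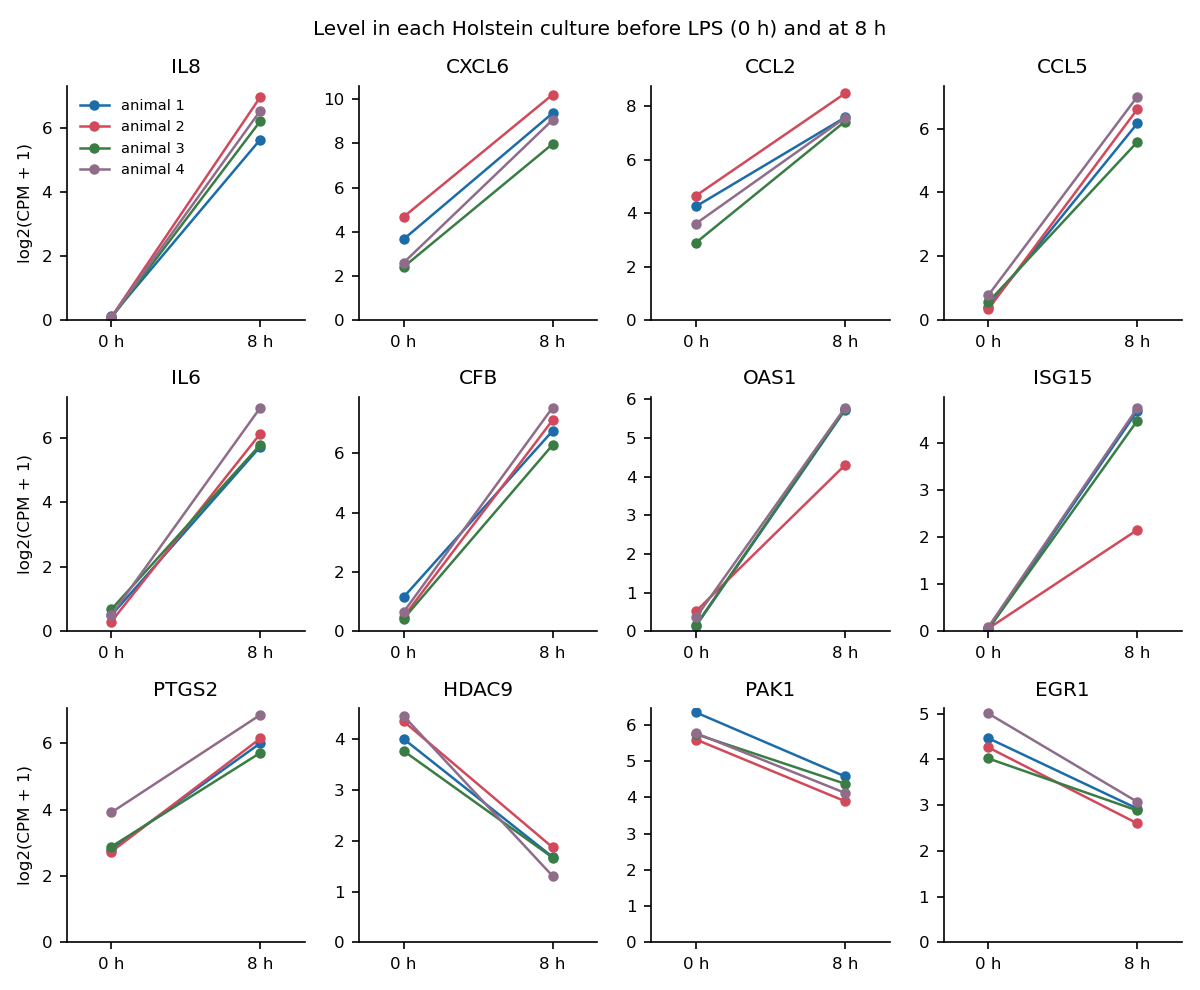
Level of 12 genes in each of the 4 Holstein cultures, as log2 of CPM plus 1, at hour 0 and hour 8, with 1 line for each animal. IL8, CXCL6, CCL2, CCL5, IL6, CFB, OAS1, ISG15 and PTGS2 rise and HDAC9, PAK1 and EGR1 fall in every animal, and the lines of animal 2 for OAS1 and ISG15 end below the others.

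Among cytokines and colony-stimulating factors, 3 of 10 tested rose, against 2.15% of all gene rows, and IL6 and IL1A of these passed the filter only through hour 8. IL6, the fever and acute-phase cytokine, was at 0.414, 0.232, 0.606 and 0.418 CPM in animals 1 to 4 at hour 0 and at 52.0, 69.1, 54.2 and 121.5 CPM at hour 8. It rose in each culture by a log2 fold change of 7.39 (SE 0.28, FDR = 1.4e-104), on its chromosome 4 row (31578311 to 31582679). IL1A, an alarmin kept in the cell, rose from 0.334 ± 0.277 to 2.24 ± 1.01 CPM, and LIF, an IL6 family member, from 3.44 ± 0.389 to 10.3 ± 2.68 CPM. With animals 1 and 3 alone IL1A was not past the threshold, at 2.13. No member of this list fell, and the list median was 0.224. TNF, IL1B and CSF3 did not reach 1 CPM in enough samples, at 0.0787 ± 0.0267, 0.0785 ± 0.0455 and 0.251 ± 0.0692 CPM at hour 8. IFNB1, the type I interferon made by fibroblasts, was at 0.271 ± 0.181 CPM before and 0.168 ± 0.0948 CPM at hour 8, in overlapping groups. CSF2 had no count in any of the 8 samples.

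Of 17 genes of the NF-kB system tested, 9 rose, 0 fell and 8 did not pass, with a median of 1.17. Among all gene rows tested, 2.15% rose and 0.778% fell. NFKBIA, the inhibitor that holds NF-kB in the cytoplasm, was at 5.32, 5.52, 5.84 and 5.44 CPM in animals 1 to 4 and reached 72.7, 96.0, 68.3 and 77.9 CPM. The animals were close to each other at both hours, and the log2 fold change was 3.82 (SE 0.10, FDR = 9.0e-281). TNFAIP3 (A20), a deubiquitinase that ends the signal, rose from 0.871 ± 0.140 to 14.6 ± 7.08 CPM, and its partner TNIP1 from 42.4 ± 4.58 to 254 ± 52.0 CPM. TNFAIP3 passed the filter only through hour 8 and so had to differ. BIRC3, a survival protein, rose by 2.38. Of the subunits, RELB, NFKB2 and NFKB1 rose by 1.81, 1.73 and 1.43. RELA, the subunit held ready in resting cells, did not pass, at 68.1 ± 5.02 and 71.8 ± 2.92 CPM (FDR = 0.228). NFKBIZ, a nuclear cofactor, and TNFAIP2 completed the rises.

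TLR4, the LPS receptor, was at 3.03, 5.37, 2.58 and 3.83 CPM in animals 1 to 4 at hour 0 and at 1.89, 4.77, 2.17 and 2.33 CPM at hour 8. It was lower in all 4 animals, the groups overlapped, and the log2 fold change of -0.45 (SE 0.15, FDR = 0.0123) did not reach the fold limit. LY96 gave -0.31 (SE 0.08, FDR = 3.4e-04) and MYD88 -0.10 (SE 0.06, FDR = 0.233). CD14 was under the filter, at 0.340 ± 0.185 and 0.523 ± 0.318 CPM. TLR2, the receptor for bacterial lipoproteins, rose from 0.432 ± 0.0169 to 3.28 ± 1.38 CPM, by 2.81 (SE 0.25, FDR = 8.2e-28). TLR2 passed the filter only through hour 8 and so had to differ. MAP3K8 (TPL2), a kinase released from NFKB1, rose by 1.14 and was no longer past the threshold without animal 2, at 0.99. Of the 25 members tested, these 2 rose and 0 fell, with a median of 0.124, where 2.15% of all gene rows rose.

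Interferon-stimulated genes are the antiviral effectors induced by interferon. Of 42 rows tested, 27 rose and 0 fell, the median was 1.40, and 9 of the 42 passed the filter only through hour 8. All 4 animals were higher at hour 8 for 40 of the 42, against 26.9% of all gene rows tested. ISG15, a ubiquitin-like antiviral protein, was at 0.0443, 0.0436, 0.0324 and 0.0660 CPM in animals 1 to 4 before LPS. It reached 24.6, 3.46, 21.2 and 25.8 CPM, a log2 fold change of 8.64 (SE 0.43). OAS1, a sensor of double-stranded RNA on chromosome 17 (63638182 to 63678163), went from 0.103, 0.436, 0.119 and 0.286 CPM to 51.6, 18.6, 52.7 and 53.7 CPM. The rise of OAS1 was 7.65 (SE 0.51, FDR = 1.4e-28), and its row overlaps that of OAS2. BST2 (tetherin), which holds budding virus at the cell surface, went from 1.23, 2.13, 0.962 and 2.05 CPM to 62.9, 9.01, 85.8 and 88.2 CPM.

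IFIH1 (MDA5), a cytoplasmic RNA sensor, rose from 0.465 ± 0.112 to 17.3 ± 4.56 CPM (log2 fold change 5.18, SE 0.25). MX1, a GTPase that blocks viral replication, rose from 2.77 ± 1.38 to 47.0 ± 34.3 CPM. MX2 had 3 counts in all at hour 0 and 1902 at hour 8, a ratio of 506 with a 95% counting interval of 173 to 2455. MX1 and MX2 are related genes, and whether reads were shared between their rows was not tested. The members that did not pass were led by PARP12 and IFI6, at 0.98 and 0.97, and the lowest were the IFITM3 rows, at 0.20 and 0.11.

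Animal 2 stood apart within this group. It had the lowest level at hour 8 for 34 of the 42 interferon-stimulated rows tested, and its change was the smallest of the 4 animals for 37 of them. Its median change was 0.889 on the scale of log2 of CPM plus 1, against 1.25, 1.48 and 1.45 in animals 1, 3 and 4. Its summed level of these rows was the lowest at hour 8, at 776 CPM against 1175, 1272 and 1348 CPM, while at hour 0 it was 487 CPM against 509, 541 and 529 CPM. The NF-kB rows of the same culture went the other way: the change of animal 2 was the largest for 14 of the 17 tested. Over all 282 rises, animal 2 had the largest change for 126 and the smallest for 52. Animal 2 also had the highest TLR4 level at both hours. Without animal 2, 30 of 43 interferon-stimulated rows passed. What set this culture apart was not tested.

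Some regulators of the interferon pathway rose as well. IRF1 rose from 2.97 ± 0.242 to 19.96 ± 4.29 CPM, by 2.73 (SE 0.13, FDR = 2.3e-92), and its row overlaps LOC100848038. IRF7, which amplifies interferon production, rose by 1.07 (SE 0.13), with overlapping groups, and fell short of the limit without animal 3, at 0.96. The receptor chain IFNAR2 and the feedback inhibitor SOCS2 rose by 1.33 and 1.29, and SOCS2 was under the limit with animals 1 and 3 alone, at 0.85. Of 21 tested in this list, 4 rose and 0 fell, with a median of 0.353.

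In class I antigen processing 4 of 22 rows tested rose, and of these PSMB9 passed the filter only through hour 8 and so had to differ. PSMB9 and PSMB8, catalytic subunits of the immunoproteasome, rose from 0.275 ± 0.117 to 2.99 ± 0.349 CPM and from 2.11 ± 0.456 to 7.27 ± 0.627 CPM. TAP1, a chain of the peptide transporter, went from 2.79, 1.21, 2.303 and 0.792 CPM in animals 1 to 4 to 8.64, 7.68, 9.07 and 10.9 CPM, and ERAP2, a peptide trimming enzyme, rose from 5.05 ± 0.449 to 16.6 ± 3.48 CPM. The class I heavy chain row BOLA gave 0.13 (FDR = 0.115), the row JSP.1 0.58, and the constitutive subunits PSMB5, PSMB6 and PSMB7 gave 0.02, 0.08 and 0.07. No row of this list fell, and the median was 0.538. The BOLA row spans several other genes, and class I genes are near copies, so their counts are less certain.

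In the complement list 2 of 12 tested rose and 0 fell, with a median of 0.248. CFB, the complement factor B protease of the alternative pathway (chromosome 23, 27225266 to 27231292), was at 1.23, 0.407, 0.346 and 0.572 CPM in animals 1 to 4. At hour 8 it stood at 106.7, 137.5, 76.6 and 184.6 CPM, a log2 fold change of 7.71 (SE 0.30, FDR = 2.0e-85). Its neighbour in function C2 rose from 0.649 ± 0.320 to 2.83 ± 0.415 CPM, and C3, the central component, did not pass, at 0.70. C2 passed the filter only through hour 8 and so had to differ. SAA3, an acute-phase protein made outside the liver, had 3 counts in all at hour 0 and 4057 at hour 8, a ratio of 1079 with a 95% counting interval of 369 to 5233. PTX3, a secreted pattern-recognition protein, rose from 0.256 ± 0.147 to 15.9 ± 7.61 CPM. M-SAA3.2, the mammary form of serum amyloid A, had 0 and 415 counts and was at least 110-fold higher, but stayed under the filter. SAA3 and PTX3 were the 2 members of the acute-phase list that could be tested, and both passed only through hour 8.

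Of 11 rows of leukocyte adhesion and co-stimulatory molecules tested, 5 rose and 0 fell, with a median of 1.01. Of these rows, 2 passed the filter only through hour 8, among them VCAM1, which had to differ. VCAM1, which binds lymphocytes and monocytes, went from 0.591, 0.465, 0.292 and 0.220 CPM in animals 1 to 4 to 19.0, 48.6, 11.3 and 17.4 CPM, by 5.78 (SE 0.27, FDR = 5.7e-78). CD40, the receptor for T cell help, rose from 8.74 ± 1.36 to 46.5 ± 7.24 CPM. The ICAM1 row that overlaps LOC782799 rose by 1.27 (SE 0.16), while the other row with that symbol gave 0.02. CD44, the hyaluronan receptor, and ICOSLG, a T cell co-stimulator, rose by 1.01 and 1.53. With animals 1 and 3 alone CD44 gave 0.95 and ICOSLG an FDR of 0.0544 by the edgeR likelihood-ratio test, and 3 rows of the list passed. CD44 was called under 12 of 16 alternatives.

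In the prostaglandin and nitric oxide list 4 of 10 tested rose and 0 fell, with a median of 0.361. PLA2G4A, which frees arachidonic acid, was at 16.3, 16.9, 13.8 and 23.2 CPM in animals 1 to 4 and reached 76.5, 79.6, 51.5 and 101.4 CPM. The cyclooxygenase PTGS2 rose from 8.02 ± 4.07 to 75.0 ± 27.9 CPM (log2 fold change 3.27, SE 0.11, FDR = 5.8e-151), with animal 4 the highest at both hours. PTGS1, the cyclooxygenase usually described as constitutive, rose from 3.93 ± 1.21 to 19.2 ± 5.58 CPM. HPGD, which degrades prostaglandins, rose by 1.09, and 0.95 was left without animals 2 and 4. PTGES, the inducible prostaglandin E synthase, did not pass, at 0.60. NOS2, the inducible nitric oxide synthase, had 0 counts at hour 0 and 658 at hour 8, at least 175-fold higher, yet was under the filter.

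Among antioxidant and metal-binding genes, 2 of 18 tested rose and 0 fell, with a median of 0.056, where 2.15% of all gene rows rose. SOD2, the mitochondrial superoxide dismutase, rose from 3.18 ± 0.401 to 25.4 ± 7.56 CPM, and MT2A, a metallothionein, from 3.05 ± 1.21 to 33.8 ± 7.59 CPM. NQO1 and CAT, which are enzymes of oxidant defence, gave -0.73 and -0.50 and did not reach the fold limit. In the glycolysis and hypoxia list 4 of 21 tested rose, at a median of 0.202. These were the glucose transporter SLC2A1 (1.90), the hypoxia factor HIF1A (1.08), the vasodilator peptide ADM (1.07) and hexokinase HK2 (1.05). ADM and HK2 were under the fold limit without animal 2, at 0.78 and 0.94, and HIF1A was under it without animals 2 and 4, at 0.90.

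**Figure D3:**
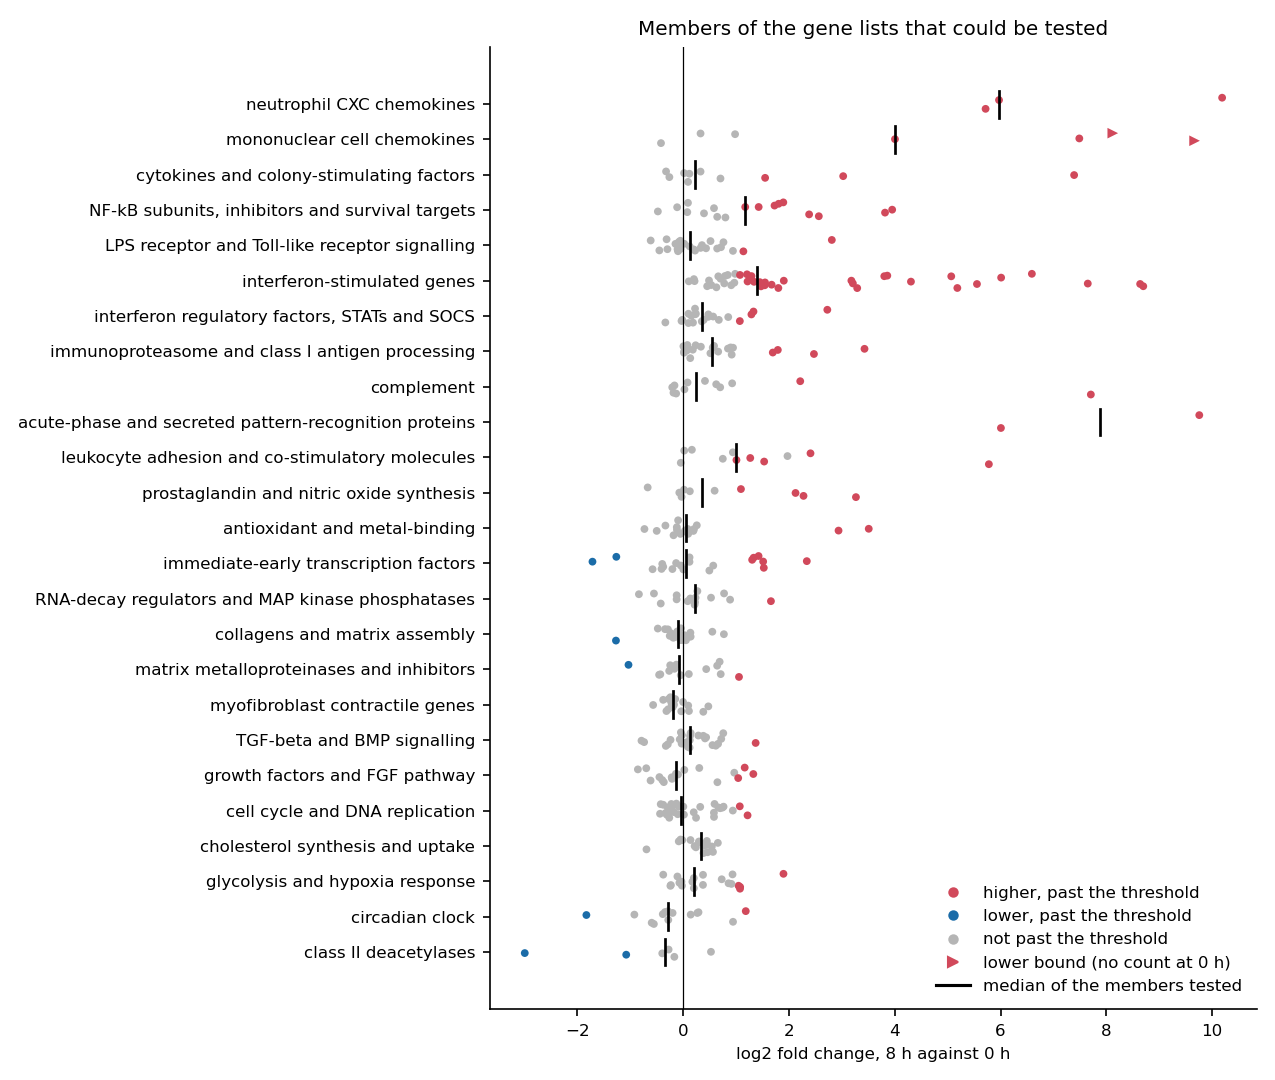
Log2 fold change at hour 8 against hour 0 (horizontal axis) of each tested member of 25 gene lists (vertical axis), with a black line at the list median. Chemokine, acute-phase, NF-kB and interferon lists hold most of the red points (rises), blue points (falls) are few, and right-pointing triangles are lower bounds for CCL20 and CX3CL1.

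Of 17 contractile genes tested, 0 passed in either direction under the likelihood-ratio test, against 2.93% of all gene rows. The list median was -0.198. ACTA2, smooth muscle actin, was lower in all 4 animals, at 7761, 6411, 6383 and 6284 CPM in animals 1 to 4 and 5243, 4094, 5042 and 3828 CPM at hour 8 (log2 fold change -0.57, SE 0.09, FDR = 4.7e-09). Of 23 collagen and matrix genes, 0 rose and 1 fell, with a median of -0.089, where 2.15% of all gene rows rose and 0.778% fell. Fibronectin (FN1) stood at 15680 ± 1952 and 15200 ± 2174 CPM, and COL1A2, a type I collagen chain, at 31500 ± 4672 and 28020 ± 3634 CPM (FDR = 0.078). Of 14 rows tested in the list of metalloproteinases and inhibitors, the aggrecanase ADAMTS4 rose by 1.06 and MMP11 fell by 1.03. Outside that list, ADAMTS3 and ADAMTS6 rose by 1.255 and 1.02 and ADAM33 fell by 1.14. ADAMTS3 was under the fold limit with animals 1 and 3 alone, at 0.91, and ADAMTS6 was called under 12 of 16 alternatives. ADAMTS4 was under the fold limit without animal 2, at 0.91, and MMP11 without animal 3 or animal 4, at -0.96 in both cases.

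The member of the collagen list past the threshold was COL1A1 (chromosome 19, 37088246 to 37105011). Its value rested on the hour 0 samples of animals 2 and 4, which had fewer covered bases for each count. Whether that accounts for their higher counts was not tested. COL1A1 levels at hour 0 were 10690, 33750, 10110 and 49140 CPM in animals 1 to 4, and at hour 8 they were 8937, 7055, 8728 and 9606 CPM. The log2 fold change was -1.27 (SE 0.39, FDR = 0.00991) with all animals and -0.24 (FDR = 0.0646) with animals 1 and 3 alone. It was -0.92 without animal 2 and -0.89 without animal 4, and with all 4 animals it did not pass under the quasi-likelihood F test or DESeq2. The overlapping LOC100847582 went from -1.24 to -0.25 in the same way. With animals 1 and 3 alone HDAC9 gave -2.67 and IL8 9.79.

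**Figure D4:**
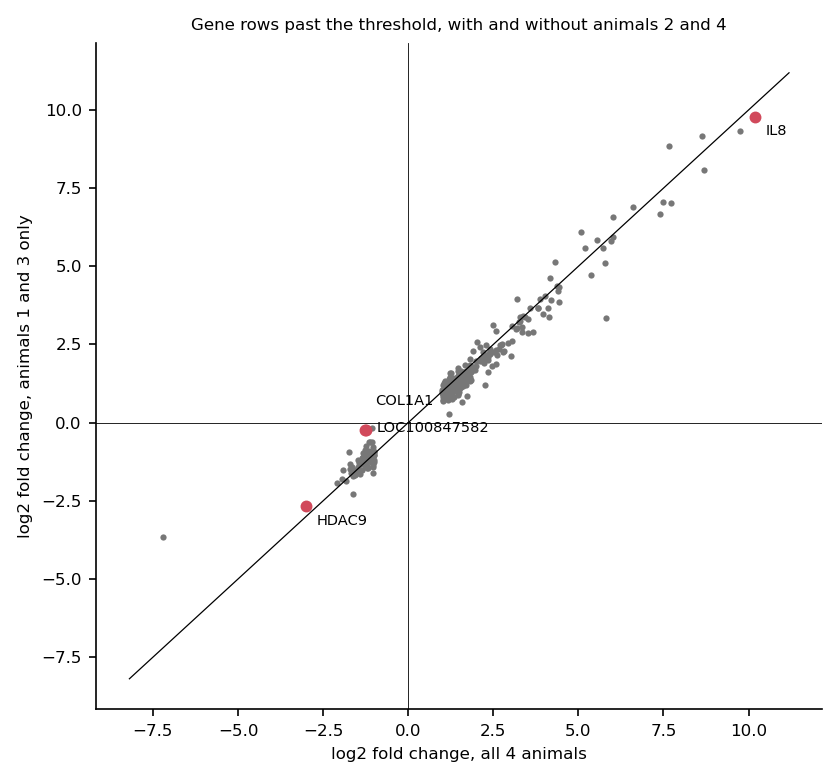
Log2 fold change of the called gene rows with all 4 animals (horizontal axis) against that with animals 1 and 3 only (vertical axis), with the line of equality, leaving out CCL20 and CX3CL1, which had no count at hour 0. Most points lie along the line, while COL1A1 and LOC100847582 move from -1.27 and -1.24 to -0.24 and -0.25.

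The shares past the threshold in the next lists are to be read against 2.15% higher and 0.778% lower of all gene rows. ID1, a target of bone morphogenetic proteins, rose from 9.98 ± 3.68 to 25.4 ± 7.54 CPM and was the member past the threshold among 25 of the TGF-beta and BMP list (median 0.126). Among 17 growth factor rows, 3 rose past the threshold and 0 fell past it. VEGFC, which acts on lymphatic vessels, FGF7, a fibroblast factor for keratinocytes, and BDNF rose by 1.33, 1.16 and 1.04. The median of this list was -0.137, and with an FDR under 0.05 as the sole limit 6 rows were higher and 6 lower. FGFR3 and FGFRL1, of the FGF receptor family, were not on this list and fell past the threshold, at -1.086 and -1.202. With animals 1 and 3 alone FGFRL1 was under the fold limit, at -0.897. BDNF was under the limit without animal 1 or animal 4, at 0.73 and 0.85, and FGF7 with animals 1 and 3 alone, at 0.96. Of 30 cell cycle rows, the mitotic genes CCNB1 and CDC20 rose by 1.22 and 1.07, and 0 fell past the threshold. The list median was -0.041, and with an FDR under 0.05 as the sole limit 11 rows were higher and 12 lower. Neither CCNB1 nor CDC20 passed with animals 1 and 3 alone, at 0.97 and 0.93. Of 18 genes of cholesterol synthesis, 0 passed under the likelihood-ratio test, although 12 were higher in all 4 animals, against 26.9% of all gene rows tested. HMGCS1, at the entry to the pathway, gave 0.66 (SE 0.09, FDR = 1.3e-11), and the list median was 0.344. SREBF1 went the other way, at -0.69 (SE 0.06), and was the 1 member lower in all 4 animals. Of 15 RNA-decay and phosphatase genes, ZC3H12A (regnase-1), which degrades inflammatory mRNA, rose by 1.66.

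The falls were led by a chromatin enzyme. HDAC9, a class II histone deacetylase that represses transcription (chromosome 4, 27066696 to 27268346), was at 15.1, 19.4, 12.6 and 21.0 CPM in animals 1 to 4 at hour 0. It was at 2.21, 2.65, 2.18 and 1.47 CPM at hour 8, and the groups were well apart. HDAC9 fell by 2.99 on the log2 scale (SE 0.20, FDR = 2.0e-40). HDAC5, of the same class, stood at 127.2, 112.2, 104.6 and 119.7 CPM before LPS and at 57.4, 51.8, 55.2 and 55.2 CPM at hour 8. HDAC5 fell by 1.08 (SE 0.06, FDR = 4.8e-70) and lay just under the fold limit when libraries were scaled by their totals, at -0.998. The other class II members did not pass: HDAC4 gave 0.53, HDAC7 -0.27, HDAC10 -0.39 and HDAC6 -0.17.

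Among the other large falls, SP7 (osterix), a transcription factor of bone-forming cells, fell from 4.03 ± 1.32 to 0.924 ± 0.175 CPM, by 2.10 (SE 0.16). PAK1, a kinase that shapes the actin skeleton (chromosome 29, 18684328 to 18780241), was at 80.2, 47.4, 52.6 and 53.6 CPM in animals 1 to 4 and at 22.9, 13.9, 19.8 and 16.4 CPM at hour 8. DBP, an output gene of the circadian clock, fell by 1.83 from 6.06 ± 1.38 CPM, while the clock gene ARNTL (BMAL1) rose from 14.4 ± 1.63 to 32.9 ± 4.70 CPM. Of the 14 genes tested in the clock list, DBP and ARNTL were the ones past the threshold. ARNTL2, which was not on that list, rose by 3.39 and was called under all 16 alternatives. PER2 and NPAS2 gave -0.92 and 0.94, and the median was -0.284. The channel subunit CNGA3 fell by 1.95, FAM150A by 1.90, the myogenic inhibitor MDFI from 1.55 ± 0.653 to 0.503 ± 0.338 CPM, the cadherin CDH6 by 1.66 and the melanocortin receptor partner MRAP2 by 1.65, all from 6 CPM or less and with overlap between the groups for CNGA3, FAM150A and MDFI. The fall with the lowest fitted value, LOC783688, was at 12.3 CPM in animal 1 at hour 8 and at or near 0 in the other 3, and was not past the threshold with animals 1 and 3 alone. It was outside the rule for named genes and is given because it stands alone in the plots.

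Immediate-early transcription factors passed in both directions. EGR1 was at 21.0, 18.2, 15.2 and 31.0 CPM in animals 1 to 4 before LPS and at 6.58, 5.06, 6.37 and 7.40 CPM at hour 8, a fall of the log2 level by 1.71 (SE 0.13, FDR = 3.3e-34). FOS fell from 34.4 ± 7.69 to 14.7 ± 4.97 CPM and was under the fold limit with animals 1 and 3 alone, at -0.87. In the other direction NR4A3, NR4A2 and NR4A1, orphan nuclear receptors, rose by 2.34, 1.52 and 1.43, and FOSL1 and CEBPD by 1.51 and 1.33. IER3, an early survival gene, rose from 23.9 ± 5.89 to 58.4 ± 8.90 CPM. Of 20 tested, 6 rose and 2 fell, with a median of 0.062.

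Hour 2 of the same cultures placed these changes in time. The 2 h comparison shares its hour 0 samples with the 8 h comparison, so both are set side by side, and hour 8 was tested directly against hour 2. At 2 h, 2.19% of 13043 gene rows rose and 0.951% fell. Of the 282 rises at 8 h, 94 were also past the threshold at 2 h. Against hour 2, 136 were higher at hour 8 and 21 lower, where 2.03% of all gene rows were called in each direction. Of the 102 falls, 13 were past the threshold at 2 h in the same direction and 47 were lower at hour 8 than at hour 2. The rises and falls were chosen in the same hour 8 samples, which favours a further change from hour 2 to hour 8. The list members below share this limit.

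All 27 interferon-stimulated rows that rose at 8 h were higher at hour 8 than at hour 2, and 1 of them (CMPK2) was past the threshold at 2 h, while 11 were too low to be tested there. OAS1 stood at 0.238 ± 0.158, 0.267 ± 0.157 and 44.4 ± 17.1 CPM at 0, 2 and 8 h. The 4 antigen processing rises were likewise higher at hour 8 than at hour 2, and 0 of them were past the threshold at 2 h, where 1 was too low to be tested. Of the 9 NF-kB rises, 8 were already past it at 2 h. Against hour 2, 4 were past the threshold downward at hour 8 and 0 upward. Under the fold limit, TNIP1 gave 0.77 (SE 0.09) and BIRC3 -0.58 (SE 0.09). NFKBIA was at 5.57 ± 0.223 CPM at 0 h, 199.7 ± 62.3 CPM at 2 h and 79.2 ± 12.3 CPM at 8 h. LIF went from 3.47 ± 0.394 to 99.0 ± 25.9 and back to 10.35 ± 2.66 CPM. FOSB, which was under the filter at 8 h, peaked at 91.9 ± 21.4 CPM at 2 h, between 0.876 ± 0.337 and 0.749 ± 0.185 CPM. The neutrophil chemokines were split: CXCL6 climbed on by 2.90 (SE 0.12), whereas IL8 gave 0.95 (SE 0.11) and CXCL2 -0.66 (SE 0.14), both under the fold limit. PTGS2 was lower at hour 8 than at hour 2, by 1.42 on the log2 scale, while PTGS1, PLA2G4A and HPGD were higher. HDAC9 was at 17.1 ± 3.81, 15.9 ± 3.57 and 2.145 ± 0.499 CPM at the 3 hours.

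**Figure D5:**
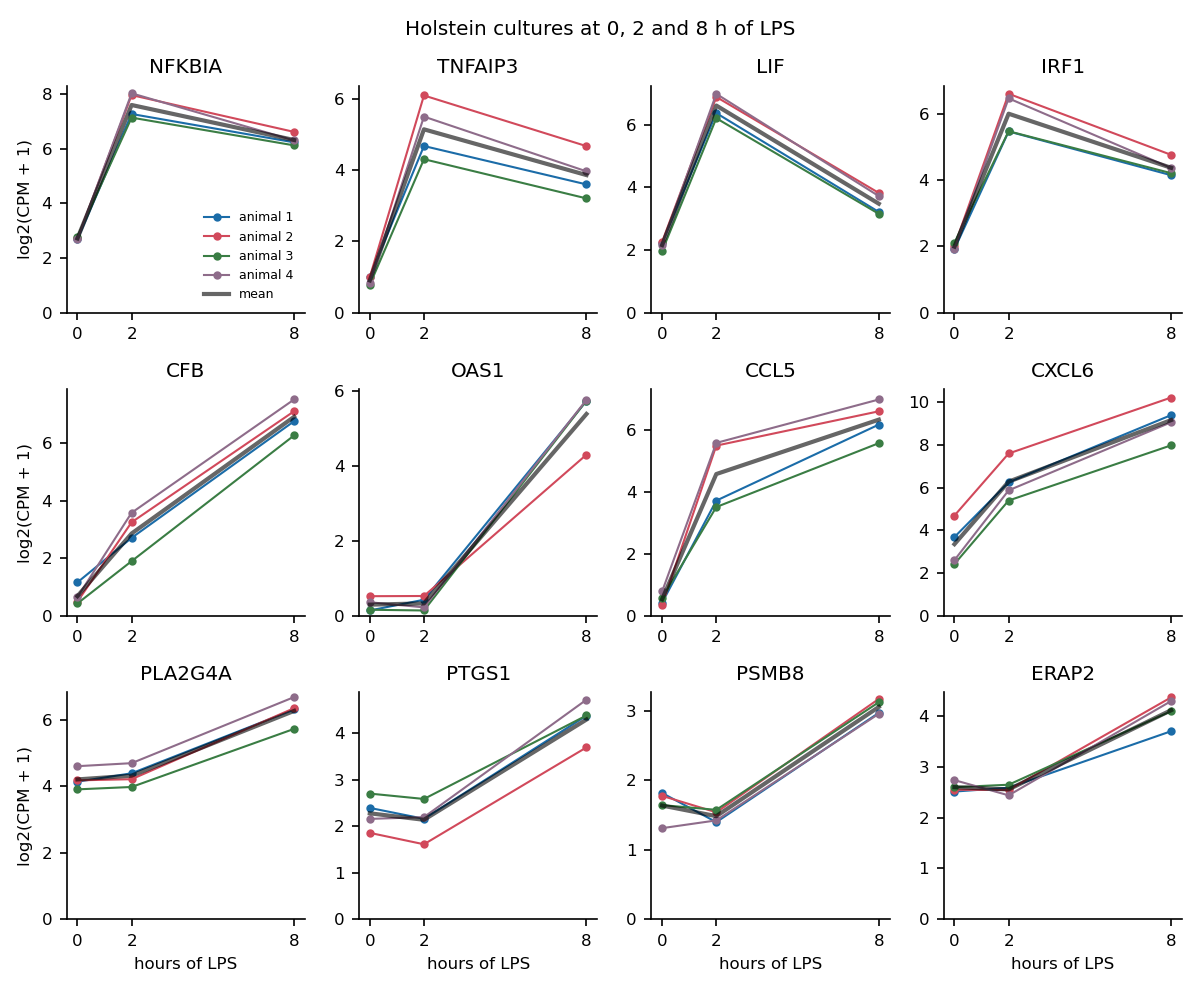
Log2 of CPM plus 1 at 0, 2 and 8 h of LPS in the 4 Holstein cultures (thin lines) with their mean (thick line) for 12 genes. The genes of the upper row peak at 2 h, those of the middle row are higher at 8 h than at 2 h, and those of the lower row are flat to 2 h and high at 8 h.

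The Angus cultures were used to ask whether these changes were particular to Holstein DF. Angus animal 4 at hour 0 also had few covered bases for each COL1A1 count, at 67.1, against 113 to 119 in Angus animals 1 to 3. Its COL1A1 level was 31320 CPM before TMM scaling, and the sample was kept in the Angus values and the interaction fit. Of 13006 gene rows tested for an interaction of breed and LPS at 8 h, 53 (0.408%) had a change higher in Holstein and 9 (0.0692%) a change lower in Holstein. Of the 282 Holstein rises, 250 could be tested, and the rise was larger in Holstein for 46 and smaller for 0. These rises were chosen in the same Holstein samples, which favours the Holstein value. IL8 rose by 6.33 (SE 0.35) in Angus DF, from 0.185 ± 0.0499 to 18.6 ± 14.2 CPM, and the difference between breeds was 3.79 on the log2 scale (SE 0.57, FDR = 2.4e-08). NFKBIA rose by 2.35 (SE 0.18) in Angus DF, a difference of 1.46 (SE 0.23, FDR = 6.9e-07), and IRF1 by 1.38, a difference of 1.34 (SE 0.21, FDR = 5.7e-07). HDAC9 was at 14.2 ± 2.37 and 6.40 ± 3.34 CPM in Angus DF, a difference of -1.71 (SE 0.37, FDR = 0.00115). Under the quasi-likelihood F test 14 gene rows in place of 62 kept an interaction, among them CXCL2, NFKBIA and IRF1 but not IL8 or HDAC9.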

How the data were processed

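The 8 samples of Holstein DF at 0 and 8 h were analysed from 1 table per sample. The authors aligned reads to UMD v3.1 with NextGENe 2.3.4 and deposited raw read counts per row without normalization. The submitters' processing notes also name CASAVA 1.7. Rows are whole gene spans with introns, or intervals without a symbol, so exons, untranslated regions and overlapping genes on either strand cannot be separated, so that 1 read may count in several rows. The deposited tables also hold a coverage signal (mean coverage of each row), used only to compare covered bases with counts.

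Counts were fitted with edgeR 4.0.16 in R 4.3.3 (limma 3.58.1), after the methods of the study: rows with 1 CPM or more in at least 4 of the 8 samples (20489 rows), a generalized linear model and its likelihood-ratio test, with p-values adjusted by Benjamini-Hochberg over all rows tested. TMM scaling and a block for the animal, which the study does not name, were added. Same-numbered samples come from the same animal, and their deviations from the group means correlated at 0.54 to 0.616. For different animals the values were -0.26 to -0.119. Centring on the group means pushes these values below 0, so they do not measure how unlike the animals were. Values are mean ± SD of TMM-scaled CPM over 4 animals, and standard errors come from the fitted model. Intervals and floors cover counting error only. No samples looked like repeats of 1 library (chi-square over degrees of freedom 36.5 to 171.7 within groups).

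The members, gene lists and markers were chosen with earlier results of these data known. Genes named are the 15 largest rises and 10 largest falls that went the same way in all 4 animals (leaving out LOC symbols and symbols on several rows), up to 4 members of each list, the LPS receptor genes, and list members under the filter with a mean of 0.5 CPM at 8 h. Other genes named beside them, on the lists or outside them, were chosen after their values were seen. Called rows included 39 LOC symbols, 9 rows whose symbol is on several rows and 55 that overlap another gene row. Alternatives were no block, the edgeR quasi-likelihood F test, DESeq2 1.42.0, other scalings and filters, all 12 Holstein samples, gene rows alone, and leaving out animals or samples. Leaving COL1A1 and LOC100847582 out of the table was added after the data were seen. The fits were tested on simulated data. The columns of minimum and maximum coverage were not used.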

Additional observations from a re-analysis of the deposited data

Results flagged for a closer look

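In 10 of 197 groups of 4 samples looked at, 1 sample lay far from the other 3 by Dixon's test, and chance gives about 1 in 20 such groups. At 8 h animal 2 was low for OAS1 (18.65 CPM, others 51.6 to 53.72) and OAS2 (1.988, others 6.468 to 7.232) and high for CCL2 (353.9, others 170.8 to 189.6) and TLR4 (4.766, others 1.894 to 2.326). At 0 h animal 2 was low for FOSL1 (9.935 CPM) and HK2 (13.57 CPM). Animal 3 was low for C2 at 8 h (2.216 CPM). Animal 4 was high for PTGS2 at 0 h (14.11 CPM) and VEGFC at 8 h (66.6 CPM), and animal 1 for ACTA2 at 0 h (7761 CPM).

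The change from 0 h to 8 h differed between the breeds for 14 of 95 named genes tested with the edgeR likelihood-ratio test. Among all gene rows tested, 0.408% had a change higher in Holstein and 0.0692% a change lower in Holstein. Many of the named genes were chosen by their change in the same Holstein samples, which favours a difference. IL8 and HDAC9 did not keep theirs under the quasi-likelihood F test. The Holstein minus Angus difference on the log2 scale was 3.793 for IL8, 1.819 for CFB, 1.011 for CXCL6, 1.523 for CXCL2 and 1.463 for NFKBIA. It was 1.129 for LIF, 1.338 for IRF1, 1.83 for PSMB9, 1.556 for TAP1, 1.24 for PTGS1 and 1.835 for MT2A. For MMP3, which was under the filter in Holstein alone, it was 2.482, for HDAC9 -1.705 and for SP7 -1.149. Before LPS, PTGS1 and MT2A stood at 33.4 ± 19.0 and 15.8 ± 11.4 CPM in Angus DF and at means of 3.96 and 3.07 CPM in Holstein DF.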

How the results depend on the processing

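Of the 384 gene rows called, 226 were called under all 16 alternatives that kept the threshold, and every call that could be tested kept its direction in each alternative. With FDR under 0.05 as the sole limit, 7210 rows and 5071 gene rows passed, 2395 higher and 2676 lower. Without the 0 h samples of animals 2 and 4, and without the block, 61 gene rows were lower in place of 102, and 282 of the 384 calls were shared. Without animals 2 and 4 altogether, 348 gene rows were called, of which 292 were shared. Leaving out 1 animal gave 371 to 441 gene rows. With no replicate block for the animal, 349 gene rows were called, and CNGA3 and ADM lost their call without the pairing. Scaling by library totals moved the share of rises among the calls from 73.4% to 80.6% and the median of all gene rows from -0.015 to 0.062. The quasi-likelihood F test lost 16 calls. Of 1815 values of named genes under the alternatives, 1717 kept their side of the threshold, 48 lost it, 50 gained it and none changed sign. The interaction of breed and LPS was less stable: 62 gene rows were called with the block, 15 with no replicate block, 14 with the quasi-likelihood F test, 41 without Holstein animals 2 and 4, and 39 (without Holstein animal 4) to 110 (without Angus animal 3) when 1 animal was left out. The cause of these shifts was not tested. Depth limits genes with 0 to 3 counts at 0 h, whose folds are bounds or ratios with wide intervals. With no unstimulated culture at 8 h, changes that follow time in culture are within every value given.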

Other observations

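Further genes were picked out from among the rises after the values had been seen, and they are given as values with no test of any group. Genes of hyaluronan, the large matrix sugar, included HAS2, the synthase, which rose from 0.471 ± 0.337 to 9.45 ± 3.16 CPM (log2 fold change 4.42, SE 0.28). UGDH and GFPT2, which make its sugar precursors, rose by 1.14 and 2.22, and TNFAIP6, which cross-links hyaluronan, by 1.17, or 0.92 with animals 1 and 3 alone. HAS1 and HAS3 were under the filter, and GFPT1, HYAL1 and HYAL2 did not pass, at 0.31, 0.41 and 0.07. Genes of retinoid handling included STRA6, the receptor for retinol binding protein, at 4.40 (SE 0.18), and the retinal dehydrogenases ALDH1A1 and ALDH1A3, at 1.24 and 2.10. RBP4, RDH10 and CYP26B1 did not pass, at -0.07, -0.11 and -0.58.

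The bradykinin receptors BDKRB1 and BDKRB2 rose by 1.86 and 1.69 on the log2 scale. The histamine receptor HRH1 rose by 1.17 with overlapping groups, and was not past the threshold with animals 1 and 3 alone, at 0.77 (FDR = 0.0979, edgeR likelihood-ratio test). F2R, the thrombin receptor, PLAUR, the urokinase receptor, and F3 (tissue factor), which starts clotting, rose by 1.68, 1.14 and 2.40, and F3 was lower at hour 8 than at hour 2. The drug-metabolising enzymes CYP3A4 and CYP3A5 rose by 3.52 and 1.96, but their rows overlap and the genes are near copies. CYP7B1, which hydroxylates oxysterols, rose by 2.60 and XDH, which makes uric acid, by 1.64. TGM3, a transglutaminase of the outer epidermis, rose from 0.990 ± 0.960 to 32.8 ± 16.3 CPM, in cultures whose keratinocyte markers summed to 0.793 to 14.5 CPM.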
